A study of Mus musculus with 31 samples.

Results

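The Notch pathway was described here through 10 of the 39179 genes in the count table: the target genes *Hes1*, *Hey1*, *Hey2* and *Nrarp*, the receptors *Notch1*, *Notch2* and *Notch3*, and the ligands *Jag1*, *Dll1* and *Dll4*. The list was selected on a measured value, the dependence of the glucocorticoid (GC) effect on *Hes1* on tumor genotype, so *Hes1* in tumors is given as a description without a p-value. Notch receptors are cleaved when a ligand on a neighboring cell binds them, and the released intracellular domain joins the DNA-binding protein RBPJ to switch on target genes. The HES and HEY families are transcriptional repressors induced in this way, and *Nrarp* encodes a feedback inhibitor of the pathway. In tumors the pathway is known for its part in vessel sprouting, where *Dll4* and *Jag1* act on endothelial cells. Outside tumors it is known for a part in melanocyte stem cell maintenance.

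Transcript counts were compared in 8 groups of the mouse melanoma line 20967, derived from a C57BL/6 animal with an Nras +LSL-G12D allele and Tyr::CreERT2 +/o, a melanocyte-directed inducible Cre. Parental cells and a glucocorticoid receptor knockout (GR KO) line, edited by CRISPR and grown from 1 clone, were each studied *in vivo* and *in vitro*. Tumors grew in the skin of wild-type C57BL/6 mice, whose own cells kept the receptor in every group, and received control cream or clobetasol propionate ointment (0.05%) 3 times weekly, with 5 tumors in each of the 4 groups. Cultures received DMSO or clobetasol propionate for 48 h, with 3 libraries per group except GC-treated parental cells (n = 2). The treatment label gives the culture dose as 10 µM and the library names give 1 µM, and the difference was not resolved. The ages of the mice were not given in the sources used here. Whole tumors were homogenised, so tumor values pool cancer and host cells, and fewer cells of a type and less RNA per cell cannot be told apart. Libraries held 14441166 to 26386770 counts, at which 3 counts, the floor used here, correspond to between 0.114 and 0.208 counts per 1000000 (CPM). Floors and counting intervals cover counting error only. Intervals of log2 fold changes were taken from their edgeR standard errors, which also include the spread between replicates. Levels are CPM scaled by edgeR's TMM factors for library composition. As the libraries sample transcript ends, levels of different genes were not compared with each other, apart from naming the gene with the highest level in each marker list.

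The edited gene *Nr3c1*, which encodes the glucocorticoid receptor, was read first. In parental control tumors it measured 62.8, 57.6, 43.9, 55.9 and 50.5 CPM, and in GR KO control tumors 20.3, 26.7, 31.2, 33.6 and 23.4 CPM. These groups did not overlap, and the log2 fold change was -1.02 ± 0.24 (SE, edgeR adjusted p = 0.031). Of 10 fits leaving out 1 tumor, the call held only in those without GR KO control replicate 3 or 4, with adjusted p-values of 0.014 to 0.086 over the 10 fits. It was also lost with the number of genes detected per library as a covariate (-0.65, adjusted p = 0.32, against 0.0054 to 0.32 over 5 alternatives). With GC, parental tumors measured 54.2, 23.5, 48.4, 36.4 and 49.6 CPM and GR KO tumors 47.3, 21.4, 57.7, 31.7 and 46.9 CPM, and the groups overlapped (log2 fold change -0.02 ± 0.24, edgeR adjusted p = 0.98). In DMSO cultures *Nr3c1* measured 33.9, 30.6 and 36.3 CPM in parental cells and 25.8, 21.6 and 16.6 CPM in GR KO cells, without overlap (log2 fold change -0.67 ± 0.22, edgeR adjusted p = 0.084), and DESeq2 called the difference (adjusted p = 0.039, against 0.039 to 0.082 over 5 alternatives). A 3′ tag can lie outside a small edit, and in tumors host cells carry the intact gene, so these levels do not check the genotype labels.

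*Hes1*, the repressor on which the list was chosen, measured 55.9, 51.8, 99.2, 90.4 and 160 CPM in parental control tumors. GC-treated parental tumors measured 37.7, 12.0, 41.4, 10.4 and 22.9 CPM. The highest of these stood under the lowest control, and the log2 fold change was -1.90 ± 0.46 (SE). In GR KO tumors the direction was opposite. Controls measured 18.5, 19.3, 40.8, 72.8 and 35.4 CPM, and treated tumors 127, 43.9, 97.7, 41.8 and 179 CPM. The treated group was higher by 1.44 ± 0.45 on the log2 scale, with overlap between the highest control and the lowest treated tumors. The GC effect was thus 3.34 lower in parental than in GR KO tumors on the log2 scale (-3.34 ± 0.64).

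In 3 of the 4 tumor groups the libraries lowest in *Hes1* were among those with few detected genes, meaning genes with a count above 0. In treated GR KO tumors, the libraries with 41.8 and 43.9 CPM detected 15224 and 15623 genes, against 16548 to 16799 in the other libraries of that group. In treated parental tumors, the libraries with 10.4 and 12.0 CPM detected 15940 and 15918 genes, against 16771 to 16983. Parental controls did not show this, as the tumor with the highest *Hes1* detected 15938 genes and the one with the lowest 16801. GR KO control tumors had the lowest numbers, 13442, 14887, 15150 and 14335 in replicates 1, 2, 3 and 5, while replicate 4, with the highest *Hes1* of its group, detected 16980. The mitochondrial share of counts was also lowest in GR KO controls, at 0.587% to 1.15%, against 1.25% to 2.47% in the other tumor libraries. With the number of detected genes as a covariate, an alternative chosen after seeing the data, the log2 fold change of *Hes1* with GC was -2.21 in parental and 0.63 in GR KO tumors, and the difference between them -2.84. The part of RNA quality beyond this covariate was not tested.

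**Figure D1:**
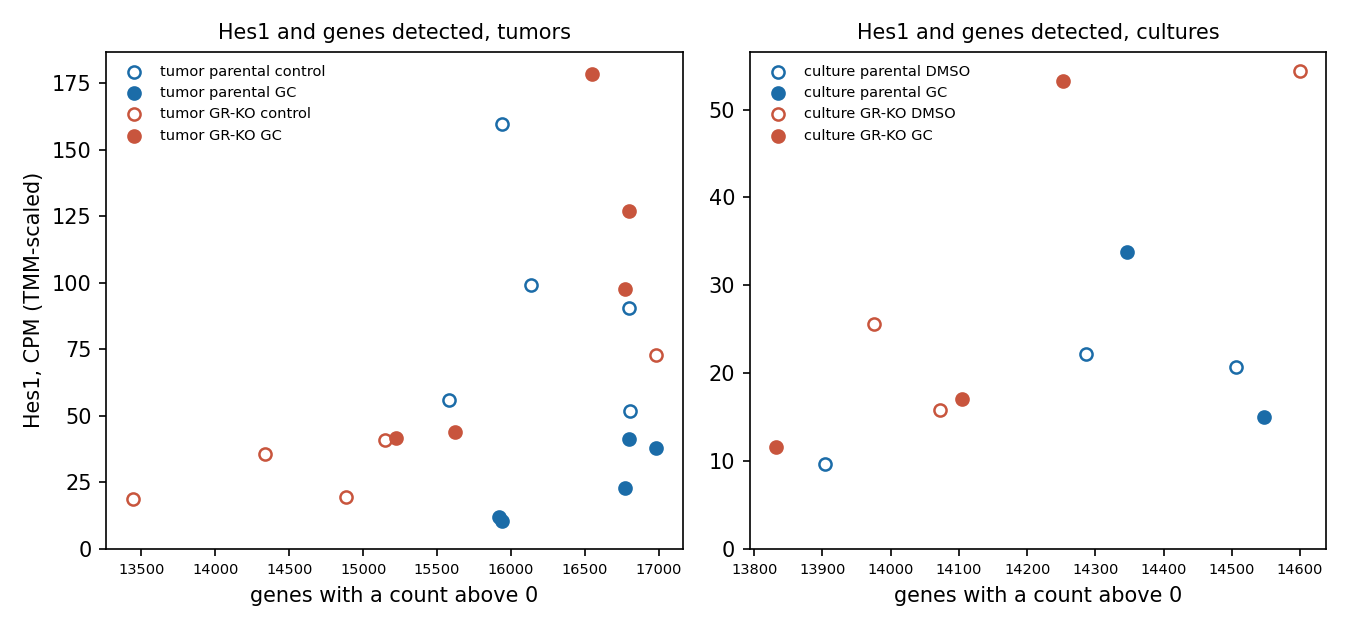
*Hes1* level (TMM-scaled CPM, vertical axis) against the number of genes with a count above 0 (horizontal axis) in 20 tumors (left) and 11 cultures (right), 1 point per library, blue for parental and red for GR KO, filled for GC. The GR KO control tumor with 16980 detected genes has the highest *Hes1* of its group, 72.8 CPM.

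*In vitro*, *Hes1* measured 22.2, 9.66 and 20.7 CPM in parental DMSO cultures and 33.7 and 15.0 CPM with GC. GR KO cells measured 25.6, 54.4 and 15.7 CPM with DMSO and 53.2, 17.0 and 11.6 CPM with GC. Within both GR KO groups, replicate cultures lay farther apart than any pair of group means. The GC effect was 0.46 ± 0.66 in parental cells (edgeR adjusted p = 0.81) and -0.21 ± 0.59 in GR KO cells (edgeR adjusted p = 0.98), and their difference of 0.67 ± 0.88 did not pass the test either (edgeR adjusted p = 0.75). Ordered by mean, *Hes1* was 97.8 ± 58.0 CPM (SD, n = 5) in treated GR KO tumors, 91.4 ± 43.4 in parental control tumors and 37.4 ± 22.1 in GR KO control tumors. Then came GR KO cultures with DMSO (31.9 ± 20.1, n = 3) and with GC (27.3 ± 22.6, n = 3), treated parental tumors (24.9 ± 14.3, n = 5), and parental cultures with GC (24.4 ± 13.2, n = 2) and with DMSO (17.5 ± 6.83, n = 3). Neighbors in this order differed by less than the larger of their SDs, except parental and GR KO control tumors.

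The 5 genes most like *Hes1* over the 20 tumors, by Pearson correlation of log2(CPM + 1) among 15918 other genes, were *Pigf* (r = 0.955), *Phc2* (0.948), *Tgif1* (0.946), *Txn1* (0.943) and *Plau* (0.942). They encode an enzyme of GPI anchor synthesis, a Polycomb protein, a homeobox repressor, thioredoxin and urokinase. The 11 cultures took no part in that choice, and looking at them was decided after seeing the tumor data. There the correlation with *Hes1* was 0.778, 0.900, 0.905, 0.969 and 0.829 in the same order, with Spearman's rho of 0.80, 0.900, 0.955, 0.936 and 0.682. Of the 12524 other genes tested in cultures, 12.1%, 3.74%, 3.39%, 0.168% and 8.75% had an r with *Hes1* at least as high. The cultures form 4 groups with their own means, so no p is given for these relations. Without the 2 cultures farthest from the *Hes1* median, r was 0.844, 0.911, 0.923 and 0.928 for the first 4 genes and 0.443 for *Plau*, whose relation rested on those cultures. With group means removed, r was between 0.762 and 0.993. *Hes1* and these genes also varied with the number of detected genes. Over the 20 tumors r with that number was 0.431 for *Hes1* and 0.397 to 0.589 for the 5 genes (0.67 and 0.571 to 0.685 with group means removed). Over the 11 cultures it was 0.553 for *Hes1* and 0.386 to 0.61 for the 5 genes (0.691 and 0.618 to 0.737 with group means removed). A linear fit on the number of detected genes was also removed, an alternative added after seeing the data. Then r with *Hes1* was 0.707 to 0.961 in cultures and 0.928 to 0.945 in the tumors that chose the 5 genes. The part of RNA quality in these relations was not tested. *Txn1*, for instance, averaged 463 ± 211 CPM (SD, n = 3) in GR KO DMSO cultures and 399 ± 266 (n = 3) with GC.

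Of the 10 genes, 9 passed the low-count filter in tumors and 6 in cultures. *Hey2* passed in neither, with at most 6 counts in any library. As *Hes1* chose the list, counts in comparisons with tumors are over the 8 other genes tested. A call is an edgeR adjusted p below 0.05 over all genes and a fold change of at least 1.5. With GC in parental tumors edgeR and DESeq2 called none of the 8, while edgeR called 0.779% of all genes tested, and 1 (*Nrarp*) had an unadjusted p below 0.05. All 8 fitted values were below 0 (median -0.37 on the log2 scale), while 49.7% of all genes tested were below 0 and their median was 0.0040. Those of *Hey1*, *Notch1*, *Notch2*, *Notch3* and *Dll1* lay within 1 SE of 0. *Dll1* was at or under the floor in 4 of 5 tumors of both groups. In GR KO tumors edgeR called none of the 8, beside 6.42% of all genes. There 1 gene, *Jag1*, had an unadjusted p below 0.05, and DESeq2 called it. Fitted values were above 0 for 4 of the 8 (median 0.21, against 0.052 over all genes). In the difference between the genotypes' GC effects, the comparison that chose the list, 6 of the 8 were below 0 and 0.195% of all genes were called, and nothing is read from it. An unadjusted p below 0.05 was found for 14.1% of all genes with GC in parental and 24.5% in GR KO tumors, and DESeq2 called 2.36% and 11%.

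**Figure D2:**
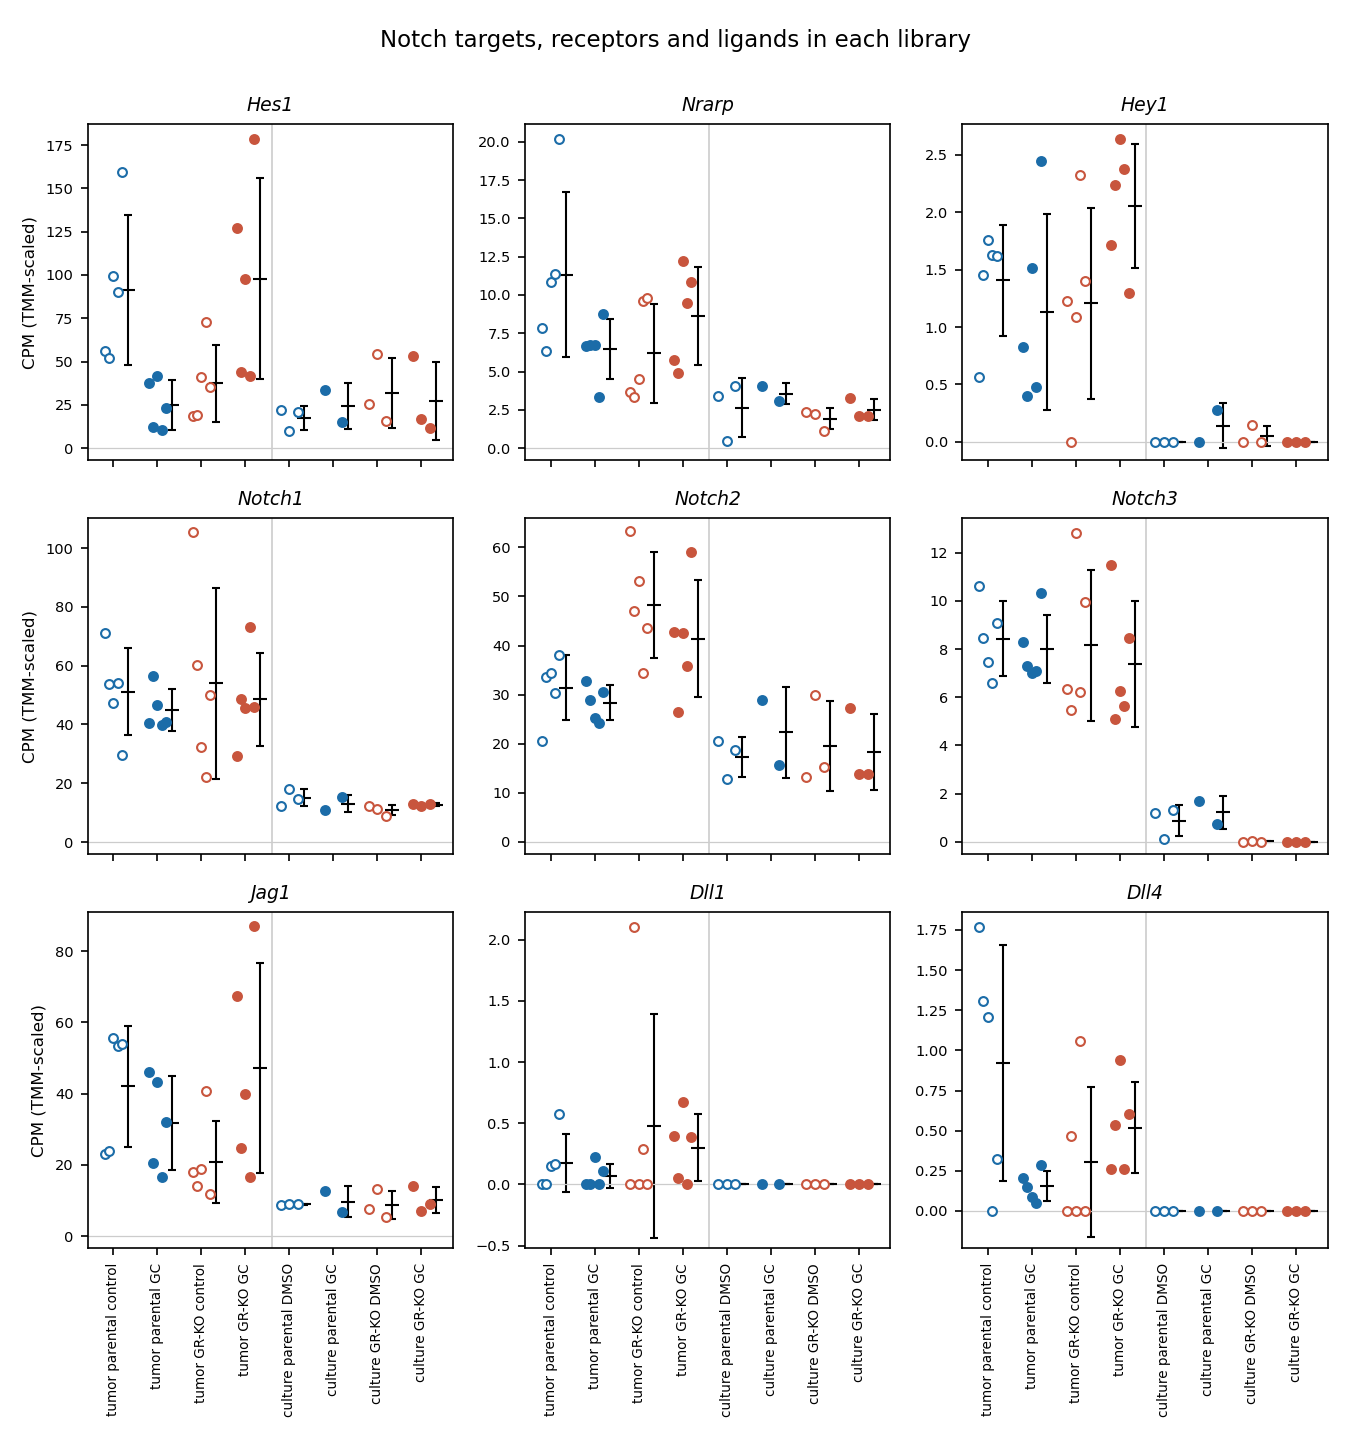
Level of 9 Notch genes (TMM-scaled CPM) in each library of the 8 groups, with black bars for mean ± SD, blue for parental, red for GR KO and filled points for GC. *Hes1* in treated parental tumors, 10.4 to 41.4 CPM, lies below every parental control, while *Dll1* and *Dll4* are at 0 in every culture.

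Among the other targets, *Nrarp* measured 7.82, 6.34, 10.9, 11.4 and 20.2 CPM in parental control tumors and 6.69, 6.75, 6.75, 3.32 and 8.75 CPM with GC. GR KO tumors measured 3.68, 3.33, 4.54, 9.59 and 9.82 CPM without and 5.73, 4.90, 12.2, 9.45 and 10.9 CPM with GC. Groups overlapped in both genotypes. The log2 fold changes, -0.82 ± 0.39 and 0.52 ± 0.39, did not pass the test (edgeR adjusted p = 0.34 and 0.42). *Hey1*, a HES-related repressor, ranged from 0 to 2.64 CPM over the 20 tumors, and its GC effects were -0.33 ± 0.74 in parental and 0.80 ± 0.74 in GR KO tumors (edgeR adjusted p = 0.89 and 0.53).

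No receptor of the list was called with GC in tumors by edgeR or DESeq2. *Notch1* ranged from 29.8 to 71.1 CPM in parental control tumors and from 39.8 to 56.5 CPM with GC, and from 22.1 to 105 CPM and 29.4 to 73.2 CPM in GR KO tumors, so that the groups overlapped. Its log2 fold change with GC was -0.19 ± 0.32 in parental tumors (95% interval -0.81 to 0.44) and -0.13 ± 0.32 in GR KO tumors (-0.75 to 0.49), where it was 0.65 with detected genes as a covariate. *Notch3* had log2 fold changes of -0.08 ± 0.30 and -0.11 ± 0.30, at means between 7.39 and 8.44 CPM. *Notch2* differed by -0.15 ± 0.22 in parental and -0.19 ± 0.22 in GR KO tumors. None of these differences passed the test, with edgeR adjusted p-values between 0.63 and 0.94.

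*Jag1*, a ligand of both endothelial and epithelial cells, measured 23.1, 23.9, 55.7, 53.2 and 54.0 CPM in parental control tumors and 46.1, 20.5, 43.3, 16.6 and 31.9 CPM with GC. GR KO tumors measured 17.9, 14.1, 18.9, 40.6 and 11.9 CPM without and 67.5, 24.8, 39.8, 16.6 and 86.9 CPM with GC. Both pairs of groups overlapped. The effect of GC on *Jag1* was -0.42 ± 0.41 in parental tumors (edgeR adjusted p = 0.69) and 1.24 ± 0.41 in GR KO tumors (edgeR adjusted p = 0.070). The second passed with DESeq2 (adjusted p = 0.030) and was 0.51 with detected genes as a covariate (adjusted p = 0.63), the ends of the range over 5 alternatives. Over fits leaving out 1 tumor it ranged from 0.88 to 1.62, with edgeR adjusted p-values between 0.015 and 0.24. It was called without GR KO control replicate 4, where it was 1.62, and without treated replicate 2 or 4. *Dll4*, the endothelial ligand, measured 1.77, 1.31, 1.21, 0 and 0.324 CPM in parental controls and 0.207, 0.151, 0.0888, 0.0481 and 0.284 CPM with GC, which is at most 5 counts per library. The groups overlapped and the difference did not pass the test (edgeR adjusted p = 0.37). *Dll1* reached 36 counts in 1 GR KO control tumor and at most 16 in the other tumors.

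**Figure D3:**
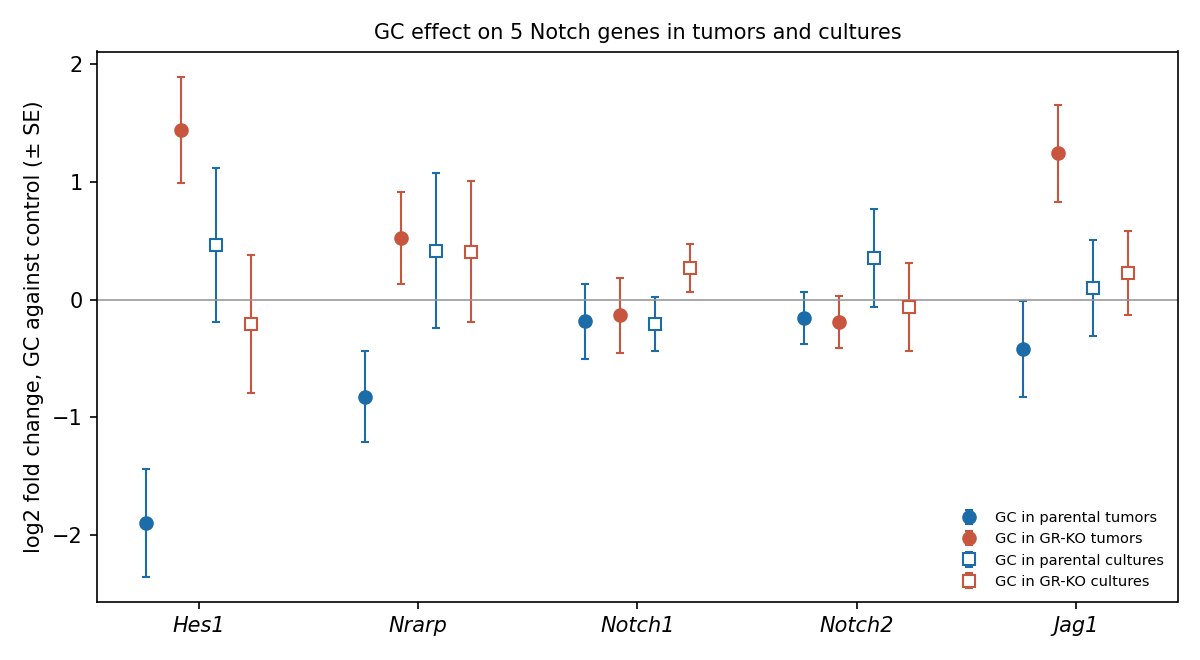
Log2 fold change with GC against control (± SE, vertical axis) for the 5 genes that passed the filter in tumors and cultures of both genotypes, circles for tumors, squares for cultures, blue for parental and red for GR KO. *Hes1* in tumors lies at -1.90 (parental) and 1.44 (GR KO), and in cultures within 1 SE of 0.

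Between genotypes, edgeR and DESeq2 called none of the 8 genes in control tumors, where edgeR called 2.25% of all genes, and 3 of the 8 had an unadjusted p below 0.05, as did 20% of all genes. *Notch2* averaged 48.3 ± 10.8 CPM (SD, n = 5) in GR KO and 31.4 ± 6.64 in parental controls, a log2 difference of 0.61 ± 0.22 (edgeR adjusted p = 0.13). *Jag1* differed by -1.06 ± 0.41 (edgeR adjusted p = 0.16) and *Nrarp* by -0.90 ± 0.39 (edgeR adjusted p = 0.20). Without GR KO control replicate 4, 2 of the 8 were called, *Jag1* (log2 difference -1.42) and *Notch2* (0.72), beside 11.1% of all genes. In GC-treated tumors edgeR and DESeq2 called none of the 8, with 1 (*Notch2*) below an unadjusted p of 0.05, while edgeR called 0.634% of all genes and 11.4% were below an unadjusted p of 0.05.

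*In vitro*, GC called none of the 6 genes tested in either genotype, with edgeR or DESeq2, and none had an unadjusted p below 0.05. Across all genes 0.878% were called in parental and 0% in GR KO cultures, where 237 genes had an unadjusted p below 0.05. The difference between these effects called none of the 6 either, with edgeR or DESeq2 and at an unadjusted p below 0.05, beside 0.295% of all genes. For *Jag1* the effects were 0.10 ± 0.40 and 0.23 ± 0.36, and for *Notch1* -0.21 ± 0.23 and 0.27 ± 0.21. Without GC, edgeR and DESeq2 called none of the 5 genes that passed the filter in both genotypes, with 1 (*Notch1*) below an unadjusted p of 0.05. Of all genes passing in both, edgeR called 6.94%, and of all genes tested 8.22%. *Notch3* passed the filter only through parental cultures, so a lower level in GR KO cells was set by the filter and its test is not read. It had 18, 2 and 22 counts in parental and 0, 1 and 0 counts in GR KO DMSO cultures. Over the group, the parental level was 50.4 times the GR KO level, with an exact 95% counting interval of 8.57 to 2040. GC-treated GR KO cultures held 0 *Notch3* counts, and GC-treated parental cultures 24 and 16.

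The wider pathway was read from 50 further genes for receptors, ligands, targets, cleavage, glycosylation, nuclear partners and ubiquitin ligases, of which 45 passed the filter in tumors and 40 in cultures. With GC, none was called in parental tumors by edgeR. There 9 of 45 were below an unadjusted p of 0.05, beside 14.1% of all genes, and DESeq2 called 3, beside 2.36%. In GR KO tumors 4 of 45 were called, beside 6.42% of all genes. *Heyl*, a further Notch target, rose by 1.71 ± 0.44 on the log2 scale from 2.50 ± 1.97 CPM (SD, n = 5) to 8.02 ± 3.62, with overlap (edgeR adjusted p = 0.022). *Lfng*, a glycosyltransferase that alters ligand choice, fell by 1.26 on the log2 scale from 120 ± 19.2 to 49.0 ± 14.1 CPM without overlap (edgeR adjusted p = 0.011). The corepressor gene *Tle3* fell by 0.93 (edgeR adjusted p = 0.030), and *Poglut1*, encoding an O-glucosyltransferase of Notch, by 0.90 (edgeR adjusted p = 0.047). With detected genes as a covariate, *Lfng* was at -1.02, *Tle3* at -0.53 and *Poglut1* at -0.24, and these 3 calls were lost. Over 5 alternatives the adjusted p-values reached 0.062, 0.38 and 0.67. The *Heyl* call was lost without control replicate 1 or 2 or treated replicate 3 or 4, when adjusted p-values reached 0.058. The *Tle3* call was lost in 5 of 10 such fits (without control replicates 1, 2 and 3 and treated replicates 3 and 5) and the *Poglut1* call with the replicate block and in 7, all but those without control replicate 3 or 4 or treated replicate 4. None of the 45 was called in the difference between genotypes' effects by edgeR, with 12 below an unadjusted p of 0.05 (20.1% of all genes), and DESeq2 called 4 (4.92% of all genes).

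Between genotypes in control tumors, DESeq2 called 2 of the 45, beside 6.29% of all genes, and edgeR called 1, beside 2.25%. This was *Tle3*, at 99.7 ± 44.4 CPM (SD, n = 5) in GR KO and 50.6 ± 9.46 in parental tumors (edgeR adjusted p = 0.042). That call was lost with the covariate (adjusted p = 0.54, the highest of 5 alternatives), with the replicate block, and in 8 of 10 fits leaving out 1 tumor, all but those without GR KO control replicate 4 or 5. In GC-treated tumors edgeR called none of the 45 (4 below an unadjusted p of 0.05, beside 11.4% of all genes) and DESeq2 called 1 (1.84% of all genes). In DMSO cultures edgeR called 4 of the 38 genes passing the filter in both genotypes, beside 6.94% of all genes that did. Over the 40 tested DESeq2 called 7, beside 11.4% of all genes. *Psen2*, a catalytic subunit of γ-secretase, was higher in GR KO cells at 21.7 ± 1.05 against 8.81 ± 2.31 CPM (SD, n = 3, edgeR adjusted p = 0.0046), as were the corepressor genes *Tle4* (21.7 ± 0.607 against 10.4 ± 2.83 CPM, edgeR adjusted p = 0.0098) and *Tle3* (edgeR adjusted p = 0.017). The *Tle3* call was lost in 4 of 6 fits, those without parental replicate 1 or any GR KO culture. *Neurl1b*, a ubiquitin ligase for ligands, was lower at 2.74 ± 0.475 against 13.2 ± 3.17 CPM (edgeR adjusted p = 0.0026). *Notch4*, a receptor known from endothelium, averaged 0.126 ± 0.136 against 3.29 ± 1.47 CPM and passed the filter only through parental cultures. Between the same cultures, 2 of 3 fibroblast, 1 of 1 melanocyte lineage and 1 of 2 endothelial markers that passed the filter in both genotypes were called, all lower in GR KO cells. A further fibroblast and a further melanocyte lineage marker passed only through parental cultures. None of the 3 mural, 1 keratinocyte, 1 leukocyte or 2 striated muscle markers passing in both was called. The fibroblast sum was 78.4 ± 7.81 against 233 ± 57.05 CPM, most of it *Col3a1* (76.3 against 196.5 CPM). The endothelial sum was 13.1 ± 1.92 against 26.8 ± 2.13 CPM, most of it *Egfl7* (10.3 against 24.5 CPM). As these were cultures of the cell line, the lists do not mark host cells there, and a link with the Notch differences was not tested. With GC *in vitro*, edgeR called none of the 40 in parental cells (6 below an unadjusted p of 0.05), GR KO cells (2) or the difference between them (4), and DESeq2 called 2, 0 and 1. Over all genes an unadjusted p below 0.05 was found for 8.48%, 1.89% and 8.58%.

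Markers of other cells moved between the same groups. The summed level of 12 endothelial genes was 97.8 ± 13.0 CPM (SD, n = 5) in parental control tumors and 65.2 ± 6.51 with GC, and in GR KO tumors 175 ± 20.7 and 92.7 ± 9.21. Of the 12, 11 were lower with GC in parental tumors and 10 in GR KO tumors, where *Kdr* and *Egfl7* were called. In parental tumors edgeR called none (3 below an unadjusted p of 0.05) and DESeq2 called *Kdr*. The most abundant was *Kdr* in both control groups and *Egfl7* in both treated groups. Their sum by library was 109, 97.4, 83.2, 112 and 86.7 CPM in parental controls and 67.9, 67.2, 54.2, 71.4 and 65.1 CPM with GC, and 200, 156, 155, 192 and 170 against 90.6, 105, 87.8, 98.6 and 81.4 CPM in GR KO tumors. The sum was thus lower with GC in both genotypes, without overlap, and the part of endothelial RNA in the Notch values was not tested. The summed fibroblast markers, led by *Col1a1* or *Col3a1*, were 5609 ± 409 and 7314 ± 1277 CPM in parental and 3903 ± 940 and 6459 ± 589 in GR KO tumors, without and with GC. Keratinocyte markers, led by *Krt14* or *Lor*, summed to 2356 ± 858 and 2546 ± 231 CPM in parental and 3807 ± 874 and 2011 ± 334 in GR KO tumors. With GC in GR KO tumors 3 of 6 fibroblast markers were called, all higher, and 4 of 8 keratinocyte markers, 2 higher and 2 lower, beside 6.42% of all genes. In parental tumors 2 of 8 keratinocyte markers were called, both higher, beside 0.779% of all genes, and no fibroblast marker by edgeR or DESeq2 (3 below an unadjusted p of 0.05). The sums of 8 mural (*Acta2*), 10 leukocyte (*Csf1r*) and 8 striated muscle (*Acta1*) markers overlapped between treated and control tumors in both genotypes. The mural sum was higher in DMSO cultures, at 3859 ± 1127 CPM (SD, n = 3) in parental and 4485 ± 968 in GR KO cells. Most of it was *Acta2* (3667 and 4300 CPM), so the mural list does not mark host cells alone. Between genotypes, the mural sum was 602 to 883 CPM in parental and 1039 to 1369 CPM in GR KO control tumors, without overlap, with 1 of 8 markers called, beside 2.25% of all genes. Most of the mural sum was *Acta2* here too, at means of 523 CPM in parental and 970 CPM in GR KO control tumors. It was the only mural marker that DESeq2 called between these control tumors. There 2 of 12 endothelial markers were called higher and 1 of 6 fibroblast and 1 of 8 keratinocyte markers lower in GR KO tumors. Of the striated muscle markers, 7 of 8 were higher with GC in parental tumors (1 called) and 7 of 8 lower in GR KO tumors (1 called). The difference between these effects was above 0 for all 8, with none called by edgeR, 6 below an unadjusted p of 0.05 (20.1% of all genes) and 2 called by DESeq2 (4.92%). Their sum was 429 ± 53.0 CPM (SD, n = 5) and 508 ± 137 in parental and 535 ± 107 and 376 ± 71.8 in GR KO tumors, without and with GC. Of 9 leukocyte markers tested, 1 was called in parental tumors, lower with GC, and none in GR KO tumors by edgeR (2 below an unadjusted p of 0.05), where DESeq2 called 1. The part of RNA from these cells in the Notch values was not tested. Of the melanocyte lineage markers, *Mitf* was the most abundant at group means of 26.0 to 41.8 CPM, and *Tyr* was at or under the floor in every tumor group and every culture group. In cultures *Sox10*, *Dct* and *Mlana* were at the floor as well, and *Mitf* averaged 4.07 to 10.9 CPM.

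Control tumors were compared with DMSO cultures of the same genotype. Of the 8 genes other than *Hes1*, *Hey1* and *Dll4* passed the filter only through tumors, so a higher level there was set by the filter. In GR KO cells this held for *Notch3* as well. *Dll1* passed in neither tumors nor cultures of either genotype taken alone, and its test is not read. It averaged 0.178 CPM in parental and 0.477 CPM in GR KO control tumors. The other 5 in parental and 4 in GR KO cells were called by edgeR and DESeq2, all higher in tumors. Of all genes passing in both tumors and cultures of the genotype, edgeR called 43.7% in parental and 52.0% in GR KO cells (46.7% and 54.8% of all genes tested). In parental cells the *Notch2* call was lost without control tumor 5 or DMSO replicate 2. In GR KO cells the *Jag1* call was lost without control tumor 4 or DMSO replicate 1, and the calls of *Jag1* and *Nrarp* without DMSO replicate 3. The median log2 difference was 2.10 for the 5 and 1.50 for the 4, against 5.34e-05 and -0.138 over all genes passing in both. *Notch1* averaged 15.1 ± 2.83 CPM (SD, n = 3) in parental cultures and ranged from 29.8 to 71.1 CPM in tumors, without overlap (log2 difference 1.76 ± 0.35, edgeR adjusted p = 0.00012). *Dll4* held 0 counts in all cultures. Against 3 counts per library, its mean was at least 4.65-fold higher in parental and 1.9-fold higher in GR KO control tumors. In GR KO control tumors, however, the median of *Dll4* was 0 CPM and 3 of 5 tumors were at or under the floor. Of the 5 parental control tumors 1 was, with 0 counts. *Hey1* was at least 7.10-fold higher in parental control tumors, against the same floor. *Notch3* in GR KO tumors was at 453 times its culture level, with a counting interval of 81.1 to 17900, and its test is not read. Of the 40 wider genes passing in both tumors and cultures of parental cells, 15 were called higher and 4 lower in tumors, and of 37 in GR KO cells 13 higher and 4 lower. *Heyl*, *Mfng*, *Jag2* and *Dtx1* passed only through tumors. All 4 had 0 counts in DMSO cultures, against which parental tumors were at least 26.4-fold, 23.7-fold, 6.39-fold and 2.79-fold higher. *Dlk2*, a non-canonical ligand, was among the lower genes in parental tumors, at 4.99 ± 3.19 CPM in cultures and 0.335 ± 0.249 in tumors, and in GR KO cells passed only through cultures. Endothelial markers summed to 26.8 ± 2.13 CPM in parental cultures, most of it *Egfl7* (24.5 CPM), and 6 of the 12, *Tek*, *Tie1*, *Cldn5*, *Erg*, *Sox17* and *Robo4*, were at or under the floor there. From parental DMSO cultures to control tumors, mean sums went from 1.60 to 2356 CPM for keratinocyte and from 2.86 to 825 CPM for leukocyte markers. Fibroblast markers went from 233 to 5609 CPM and mural markers the other way, from 3859 to 746 CPM. Their part in the Notch differences was not tested. Material and origin of the libraries cannot be told apart in this comparison.

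In GENCODE M21 (GRCm38), *Hes1* (ENSMUSG00000022528) lies on chromosome 16 from 30064384 to 30067796, *Jag1* (ENSMUSG00000027276) on chromosome 2 from 137081456 to 137116644 and *Nrarp* (ENSMUSG00000078202) on chromosome 2 from 25180758 to 25183339. *Hes1*, *Hey1*, *Hey2* and *Jag1* overlap no other gene. An antisense gene overlaps each of *Nrarp*, *Notch1*, *Notch3*, *Dll1* and *Dll4* in this annotation. The deposited counts were made with a different annotation, and whether it held all of these antisense genes was not checked. The sources used here name default settings unless stated, under which featureCounts ignores strand. How reads within the overlaps were counted, and any effect on the levels of these Notch genes, was not tested. Of these antisense genes 1 passed the filter, 0610009E02Rik across the 3′ end of *Notch1*, with at most 34 counts in a tumor.

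Promoter sequences from RefSeq (GRCm38.p6) were matched for 8 of the 10 genes, all but *Hes1* and *Hey1*. The 250 bases before each start were searched on both strands for the RBPJ motif GTGGGAA, the E-box CACGTG bound by HEY proteins, and the glucocorticoid response element, in which AGAACA is followed after any 3 bases by its reverse complement TGTTCT. These occur in 5.41%, 6.02% and 0.00913% of 32841 promoters. *Hey2* held 1 RBPJ match on the opposite strand (read as TTCCCAC), 207 to 201 bases before the start, and *Nrarp* 1 E-box, 108 to 103 bases before it, and no other motif was matched in the 9 entries. The promoters of *Nrarp* and *Hey2*, which hold the 2 matches, and of *Jag1*, which DESeq2 called with GC in GR KO tumors, are shown 5′ to 3′ with matches in capitals (*Nrarp* chr2:25180508-25180757, plus strand; *Jag1* chr2:137116521-137116770 and *Hey2* chr10:30842784-30843033, minus strand).
Nrarp: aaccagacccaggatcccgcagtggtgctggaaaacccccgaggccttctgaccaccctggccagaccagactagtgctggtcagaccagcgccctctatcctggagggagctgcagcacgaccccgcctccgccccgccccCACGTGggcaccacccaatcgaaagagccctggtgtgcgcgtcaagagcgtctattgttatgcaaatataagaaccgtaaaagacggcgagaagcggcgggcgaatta
Jag1: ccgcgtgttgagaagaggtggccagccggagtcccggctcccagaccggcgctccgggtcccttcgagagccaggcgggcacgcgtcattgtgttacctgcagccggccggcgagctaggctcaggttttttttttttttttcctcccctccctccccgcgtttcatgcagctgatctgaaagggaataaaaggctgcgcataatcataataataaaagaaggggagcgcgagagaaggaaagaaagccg
Hey2: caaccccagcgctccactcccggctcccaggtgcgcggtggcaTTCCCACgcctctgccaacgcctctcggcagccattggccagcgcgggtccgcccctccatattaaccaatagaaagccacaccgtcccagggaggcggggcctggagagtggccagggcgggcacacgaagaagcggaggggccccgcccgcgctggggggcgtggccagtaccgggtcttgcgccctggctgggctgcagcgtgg
A match is a description of the letters and not a measured binding site.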

How the data were processed

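Tumor and culture RNA was made into QuantSeq 3′ FWD libraries. Per the labels, the authors trimmed reads with Trim Galore 0.6.5, aligned them to GRCm38 with STAR 2.6.1d and deposited integer counts per gene from featureCounts with Ensembl 75 annotation. The version of featureCounts was not given in the sources used here, and default settings, which ignore strand, applied unless stated. The deposited counts of 31 libraries were tested with edgeR 4.0.16 (quasi-likelihood F test, TMM factors, genes kept when 3 or more samples of the fit reached 0.5 CPM, Benjamini-Hochberg adjustment over all genes tested) in separate fits for tumors, cultures and their comparison. Standard errors were taken from the F statistic. The procedure was tested on simulated data. Alternatives were DESeq2 1.42.0, its size factors, no filter, leaving out each sample, the replicate number as a block and, added after seeing the data, detected genes as a covariate and counts over genes passing the filter on both sides of a comparison, taken within the genotype where tumors were set against cultures. Nothing says that replicate cultures were started separately, so p-values there may measure technical spread. The members and lists were chosen with earlier results of these data known. Named genes were the 10 members, pathway genes called by edgeR (at most 4 per direction), the 5 genes most like *Hes1*, *Nr3c1* and the most abundant marker of each list. Some markers at or under the floor and the antisense gene that passed the filter were named as well.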

Additional observations from a re-analysis of the deposited data

Results flagged for a closer look

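The GC effect on *Hes1* differed between parental and GR KO tumors by -3.34 on the log2 scale, the value on which the gene list was chosen. In *Jag1*, GR KO control replicate 4 stood at 40.6 CPM against 11.9 to 18.9 CPM in the other 4 tumors of its group. In *Dll1*, GR KO control replicate 2 measured 2.10 CPM against at most 0.286 CPM, and parental control replicate 5 measured 0.577 CPM against at most 0.163 CPM. *Hey1* was low in parental control replicate 1, at 0.568 CPM against 1.45 to 1.76 CPM. *Hey2* was above 0 in 1 treated GR KO tumor (0.259 CPM) and 1 treated parental tumor (0.104 CPM) and at 0 in the rest of both groups. With the other 4 values at 0 any count stands apart, and 0.104 CPM was 2 counts, which cannot be told from absent. Parental control replicate 5 had summed keratinocyte markers of 3886 CPM against 1873 to 2074 CPM, replicate 1 had summed striated muscle markers of 518 CPM against 388 to 425 CPM, and replicate 2 had a mitochondrial share of 2.47% against 1.25% to 1.46%. These 9 values came from 82 groups examined, and chance sets a value apart in about 1 of 20 groups.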

How the results depend on the processing

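No result for a named gene changed sign while called under DESeq2, its size factors, no low-count filter, the replicate number as a block, the added covariate or the omission of 1 library. *Hes1* chose the list by its tumor values, so counts in comparisons with tumors are over the 8 other genes tested. DESeq2 called 1 of them with GC in GR KO tumors, where edgeR called 0. Between genotypes in control tumors both called 0. Without the filter 0 were called with GC in GR KO tumors. With the replicate block 0 were called between genotypes in DMSO cultures, where edgeR called *Notch3*, a call also lost in 5 of 6 fits leaving out 1 culture. Leaving out 1 library, the count stayed at 0 for GC in parental tumors and between genotypes in treated tumors. It ranged from 0 to 1 for GC in GR KO tumors and for the difference between these effects. Between genotypes it ranged from 0 to 2 in control tumors and from 0 to 1 in DMSO cultures. For GR KO tumors against cultures the range was 4 to 8. A treated parental culture left alone was assumed to vary like the other groups. The cause of these differences was not tested.

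Over all genes, the calls with GC numbered 124 in parental and 1022 in GR KO tumors. They were 376 and 1756 with DESeq2 and 510 and 229 with detected genes as a covariate. Between genotypes in control tumors the count was 358, against 1001 with DESeq2, 55 with the covariate and 1762 without GR KO control replicate 4. Leaving out 1 tumor, these 3 counts ranged from 60 (without parental control replicate 3) to 178 (parental control replicate 2), from 303 (treated GR KO replicate 3) to 2411 (GR KO control replicate 4) and from 61 (GR KO control replicate 2) to 1762. In the difference between GC effects in tumors the count was 31, and 144 with the replicate block. It ranged from 0 (without parental control replicate 3 or GR KO control replicate 2) to 1284 (without GR KO control replicate 4). Between genotypes in treated tumors it was 101, and 345 with the covariate. There it ranged from 40 (without treated GR KO replicate 5) to 114 (without treated parental replicate 1). Leaving out 1 culture, the calls with GC in parental cultures ranged from 31 (without treated parental replicate 1; 36 without replicate 2) to 78 (without parental DMSO replicate 2), against 110 with all. Between genotypes in DMSO cultures they ranged from 594 (without GR KO DMSO replicate 2) to 916 (without parental DMSO replicate 3), against 1030, and in the difference between GC effects from 17 (without treated parental replicate 2) to 43 (without treated GR KO replicate 1), against 37. The shares of all genes called in the text therefore depend on single libraries. The mean correlation of libraries sharing a replicate number was 0.0581 in tumors (-0.546 to 0.415 over 30 pairs). In cultures it was 0.0199 (-0.55 to 0.618 over 15 pairs). Libraries with different numbers averaged -0.0128 and -0.0121, and the samples were not treated as paired. In both treated tumor groups, however, replicates 2 and 4 had the lowest *Nr3c1* and the fewest detected genes. Pairing between these 2 groups was not tested. Genes with fewer than 3 counts in a library, such as *Hey2* in most libraries, cannot be told from absent at this depth.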
